A study of Mus musculus with 2 samples.

Results

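A set of 10 genes of the KIT and GDNF pathways and of spermatogonial fate was followed in testes of 17 day old mice. They are the ligand genes Kitl and Gdnf, the GDNF receptor genes Gfra1 and Ret, the transcription factor genes Zbtb16 and Etv5, the receptor gene Kit, and the regulators Dmrtb1, Dazl and Dmrt1. They were chosen by name, as the genes among 12393 on the array whose probe sets carry that single symbol, and all 10 were read, by 18 probe sets. The comparison was between wild type mice and UBR2-/- mice, in which the ubiquitin ligase UBR2 is missing, both of mixed 129SV and C57BL background. Each genotype had 1 array, described as holding 2 testes that came from separate mice of a litter. The sources used here do not say how the allele was made or whether the RNA of both testes was pooled.

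Spermatogonia are the mitotic germ cells of the testis. Stem and other undifferentiated spermatogonia carry the receptor pair GFRA1 and RET on their surface and are kept in that state by GDNF from Sertoli and peritubular cells. When they begin to differentiate they turn on the receptor tyrosine kinase KIT, whose ligand KITL also comes from Sertoli cells, and after further divisions they enter meiosis.

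Expression was measured as probe set signal on an oligonucleotide array, a linear intensity on a scale common to both arrays. A floor was set at the 40th percentile, which was 24.4 in wild type and 24.7 in UBR2-/- testes, and signals below it were raised to it before a log2 ratio of UBR2-/- over wild type was taken. The brightest probe set stood for a gene, which was compared if the mean of both signals reached 24.55, which 8091 genes did. With 1 array per genotype (n = 1) no test was possible, and each difference describes these 2 arrays. As a partial error, the SD of the log2 ratio of a probe set, taken from 2894 genes with several probe sets, was 0.24 for dim probe sets, 0.18 for those of intermediate brightness and 0.13 for bright ones, and it holds no error between arrays or animals. Ubr2 itself had signals of 57.2 in wild type and 14.3 in UBR2-/- testes and was at least 2.32-fold lower, though the sources used here do not place its only probe set relative to the deletion.

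Dmrtb1, which guides late spermatogonia towards meiosis, was 1.76-fold lower on the UBR2-/- array. Gdnf, which keeps stem spermatogonia undifferentiated, was at least 1.59-fold higher. Below the floor in wild type testes, Gdnf was compared only through its UBR2-/- signal. The direction of its bound was therefore set by the filter. Of the 8 genes that could be compared, 0 were at least 2-fold higher and 0 at least 2-fold lower by their brightest probe set. Among all 8091 genes 0.346% were at least 2-fold higher and 3.52% at least 2-fold lower. The dimmer probe set of Kit was 1.95-fold higher. With spike-in scaling 1 gene (Dmrtb1, at -1.17) was at least 2-fold lower, against 528 of all 8087 genes compared on that scale. With that floor at the 25th percentile 1 gene (Ret, at least 3.48-fold) was higher, against 132 of all 9802 genes then compared. Ret passed there only through its UBR2-/- signal. At 1.5-fold, 1 of the 8 was higher (Gdnf, by its bound) and 1 lower (Dmrtb1), against 4.25% and 7.71% of all genes. The 8 genes had a median log2 ratio of 0.08, and 4 of them, Gdnf by its bound included, exceeded the all-gene median of 0.07.

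Of the 18 probe sets, 12 were above the floor on both arrays, 2 were below it on the wild type array only and 4 were below it on both. The genes not compared were Gfra1 and Ret, so the receptor pair for GDNF could not be followed. In bulk testis RNA, fewer cells of a type and less RNA per cell cannot be told apart.

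**Figure D1:**
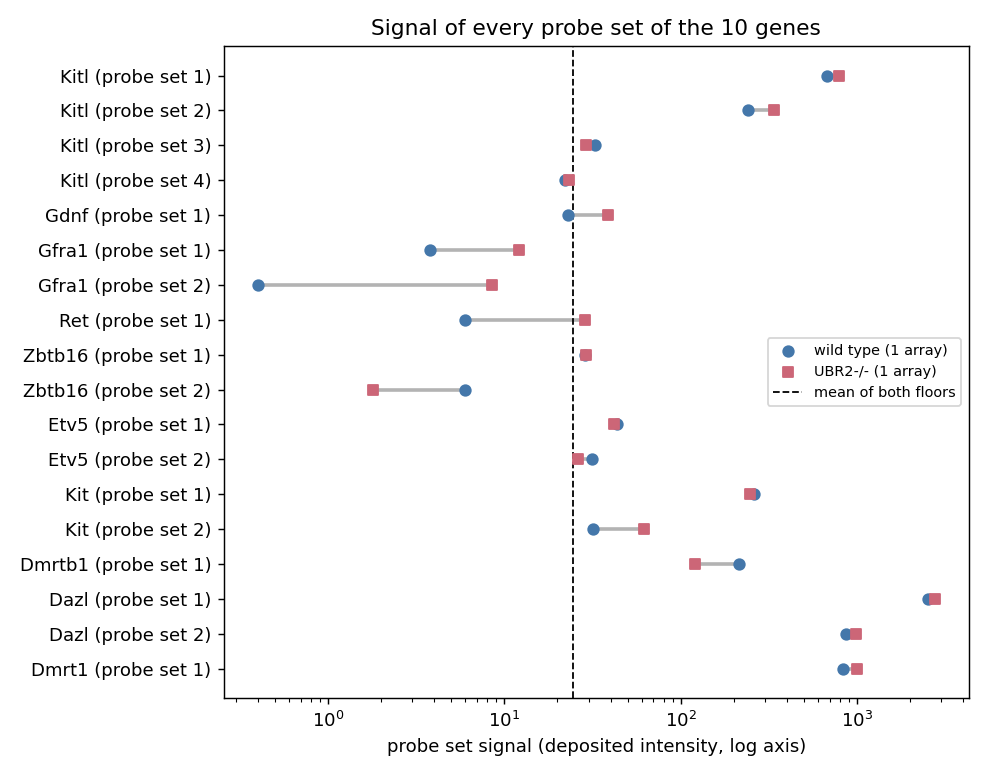
Signal of each of the 18 probe sets on the wild type array (circles) and the UBR2-/- array (squares), on a log axis, with the mean floor of 24.55 as a dashed line. Probe sets are numbered within a gene from the brightest. Both probe sets of Gfra1 lie left of the line on both arrays, and those of Dazl lie far to its right.

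Kitl and Gdnf encode the ligands that somatic cells offer to spermatogonia. Kitl was read by 4 probe sets, and the brightest, 1415855_at, gave 676.2 in wild type and 791.3 in UBR2-/- testes, a log2 ratio of 0.23 with a probe set SD of 0.13. The next, 1448117_at, gave 239.9 and 336.9, which is 1.40-fold higher on the UBR2-/- array. These 2 brighter probe sets were both higher on the UBR2-/- array, in a gene whose product exists as a membrane-bound and a soluble form through splicing. The dim probe set 1415854_at went the other way, with 32.7 and 29.1 and a log2 ratio of -0.17, closer to 0 than its SD of 0.24. The remaining 1426152_a_at, with 22 and 23.2, was below the floor on both arrays and gives no ratio. The 3 measured ratios spanned 0.66, and 6.88% of the 2894 genes with several measured probe sets spanned as much or more. By its brightest probe set Kitl exceeded the all-gene median by 0.15. With both arrays scaled on spike-in control transcripts, which moves the median of all genes from 0.07 to -0.28, its own ratio turned to -0.13 and it lay 0.15 above that median. That scaling lowers each log2 ratio by 0.35, so every direction given here by a ratio between 0 and 0.35 turns with it, while distances from the median of all genes hardly move.

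Gdnf, the growth factor of the stem cell niche, was read by 1 dim probe set, 1419080_at. It gave 22.9 on the wild type array, under the floor, and 38.9 on the UBR2-/- array, above it. The gene was therefore at least 1.59-fold higher on the UBR2-/- array, and 198 of 8091 genes (2.45%) had a higher ratio. A gene below the wild type floor is compared only if its UBR2-/- signal is above the floor. On the deposited scale the direction of such a bound is therefore set by the filter. The bound was above 0 under spike-in scaling too, with a log2 value of 0.32. With the floor at the 60th percentile Gdnf was too dim to be compared.

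The stretches of 250 bases before a start site of Kit, Kitl, Gdnf and Dmrtb1 are given because these genes form the KIT receptor and ligand pair, the ligand farthest above the median of all genes and the gene farthest below it. They come from RefSeq on build GRCm38.p6, which held such a stretch for 7 of the 10 genes. They cover chr5:75574737-75574986 on the plus strand, chr10:100015571-100015820 on the plus strand, chr15:7809798-7810047 on the plus strand and chr4:107684231-107684480 on the minus strand, from the start site farthest upstream where that table lists several. Each is written 5′ to 3′ on the strand of its gene, and capitals mark the matches of 3 short motifs on either strand, the TATA box TATAAA, the GC box GGGCGG and TGACG, the core of the cyclic AMP response element.
Kit: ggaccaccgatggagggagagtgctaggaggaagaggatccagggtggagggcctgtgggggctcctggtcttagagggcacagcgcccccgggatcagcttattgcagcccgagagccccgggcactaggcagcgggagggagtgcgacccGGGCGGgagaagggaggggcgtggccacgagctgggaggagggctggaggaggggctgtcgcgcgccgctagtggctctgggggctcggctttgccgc
Kitl: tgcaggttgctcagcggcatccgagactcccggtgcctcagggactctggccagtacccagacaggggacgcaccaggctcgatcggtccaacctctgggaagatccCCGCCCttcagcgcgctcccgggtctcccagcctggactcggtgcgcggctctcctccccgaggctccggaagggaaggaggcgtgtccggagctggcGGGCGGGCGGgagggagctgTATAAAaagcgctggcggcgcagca
Gdnf: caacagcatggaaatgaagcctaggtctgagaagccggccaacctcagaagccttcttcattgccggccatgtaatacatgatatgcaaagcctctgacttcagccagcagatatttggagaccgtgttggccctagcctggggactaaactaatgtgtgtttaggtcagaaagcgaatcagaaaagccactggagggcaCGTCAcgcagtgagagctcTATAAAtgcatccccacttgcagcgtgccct
Dmrtb1: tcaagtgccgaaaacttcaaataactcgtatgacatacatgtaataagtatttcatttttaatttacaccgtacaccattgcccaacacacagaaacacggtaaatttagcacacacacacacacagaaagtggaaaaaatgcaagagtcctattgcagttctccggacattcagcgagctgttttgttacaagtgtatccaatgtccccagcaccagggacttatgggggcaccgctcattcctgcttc
Both ligand genes held a TATA box, found in 12.4% of 32851 such stretches. It began 25 bases before the start site in Kitl and 31 bases before it in Gdnf. Kitl held 3 GC boxes, 2 of them overlapping, and Kit held 1, a motif found in 32.7% of stretches. Gdnf held 1 cyclic AMP core, found in 17.8%. The stretch of Dmrtb1 held 0 matches of the 3 motifs. G and C made up 70.8% of the stretch of Kit, 69.2% of that of Kitl, 50.8% of that of Gdnf and 42.4% of that of Dmrtb1. A match is a description of letters and not a measured site.

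The genes of undifferentiated spermatogonia among the 10 were dim on both arrays, and those that could be compared lay close to the median of all genes. The co-receptor gene Gfra1 had 2 probe sets below the floor on both arrays, with 3.8 in wild type and 12.1 in UBR2-/- testes for 1450440_at, and 0.4 and 8.5 for 1421973_at. Both read higher on the UBR2-/- array, at a brightness where no order can be read. Ret, the tyrosine kinase that signals for the GDNF receptor, had 6 in wild type and 28.5 in UBR2-/- testes in its only probe set, 1421359_at. The UBR2-/- signal was just above the floor of 24.7 and the wild type signal below it, and the mean of 17.2 left Ret out of the comparison. With a floor at the 25th percentile, which was 8.2 in wild type testes, Ret entered it as at least 3.48-fold higher. Its wild type signal of 6 was below that floor too. It thus passed only through its UBR2-/- signal, and the direction of this bound was set by the filter.

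Zbtb16 encodes PLZF, a zinc finger repressor that stem spermatogonia need. Its probe set 1419874_x_at gave 28.7 and 29.2, a log2 ratio of 0.02 with an SD of 0.24 that turned to -0.33 with spike-in scaling, and the other, 1427638_at, was below the floor on both arrays with 6 and 1.8. The ending of the first name marks a probe set that can bind other transcripts, and without such probe sets Zbtb16 was not measured. Etv5 encodes an ETS factor that GDNF induces in spermatogonia and that Sertoli cells also make. Its probe set 1450082_s_at gave 43.7 and 41.6, and 1420998_at gave 31.3 and 26.2, for log2 ratios of -0.07 and -0.26. Both were lower on the UBR2-/- array, the former by less than the SD of 0.24 and the latter by slightly more. The 2 compared genes had a median log2 ratio of -0.02.

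**Figure D2:**
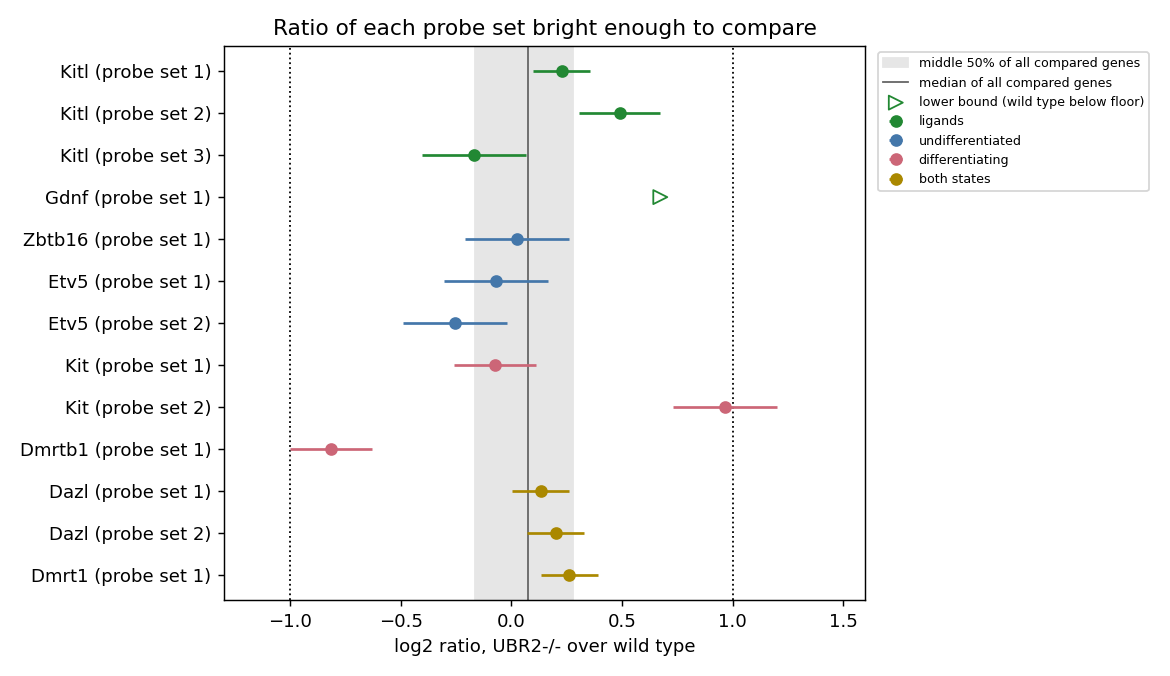
Log2 ratio of UBR2-/- over wild type for the 13 probe sets bright enough to compare, coloured by role, with bars of 1 SD of a probe set's ratio and an open triangle for a lower bound. The grey band is the middle 50% of all compared genes, from -0.17 to 0.28, and dotted lines mark 2-fold. The lowest point is Dmrtb1 at -0.82 and the highest is the dim probe set of Kit at 0.97.

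The genes of differentiating spermatogonia were Kit and Dmrtb1, and they differed from each other. The brighter probe set of Kit, 1452514_a_at, gave 261.1 in wild type and 247.9 in UBR2-/- testes, a log2 ratio of -0.07 with an SD of 0.18. The dimmer, 1415900_a_at, gave 31.7 and 61.9, which is 1.95-fold higher on the UBR2-/- array, with a log2 ratio of 0.97 and an SD of 0.24. The brighter probe set thus read Kit as close to level between the arrays and the other as higher on the UBR2-/- array. The gap of 1.04 between their ratios was matched or passed by 36 of the 2894 genes with several measured probe sets (1.24%). Besides the full receptor, the Kit gene gives a truncated transcript in haploid germ cells. Both names carry the ending for probe sets shared by several transcripts of 1 gene, and the sources used here do not say which transcripts each reads. The mean of both probe sets was 0.45, so the direction for Kit depends on the probe set. Mast cells also carry KIT. Their 5 markers Cpa3, Cma1, Tpsb2, Mcpt4 and Fcer1a were below the floor on both arrays. The summed signal of these markers was 23.2 in wild type and 19.9 in UBR2-/- testes. The part of mast cells or of other somatic cells in the Kit values was not tested.

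Dmrtb1, also named Dmrt6, encodes a DM domain transcription factor that acts in late spermatogonia at the turn from mitosis to meiosis. Its only probe set, 1427252_at, gave 212.6 in wild type and 120.8 in UBR2-/- testes. The UBR2-/- signal was 1.76-fold lower, with a log2 ratio of -0.82 and an SD of 0.18. It lay 0.89 below the median of all genes, and 382 of 8091 genes (4.72%) had a lower ratio. The log2 ratio stayed between -1.17 and -0.77 under all 9 alternatives tried, and it passed 2-fold with spike-in scaling. The other floors and the choice of probe sets could not move it, since its only probe set lay above each floor on both arrays. Genes of pachytene spermatocytes were also lower on the UBR2-/- array, and all 5 markers were below the all-gene median. At least 2-fold lower were 4 of them (Ldhc, Crisp2 and, as bounds, Pgk2 and Adam3). The summed signal of the 5 markers was 6846.3 in wild type and 1292 in UBR2-/- testes. Their part in the Dmrtb1 value was not tested.

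**Figure D3:**
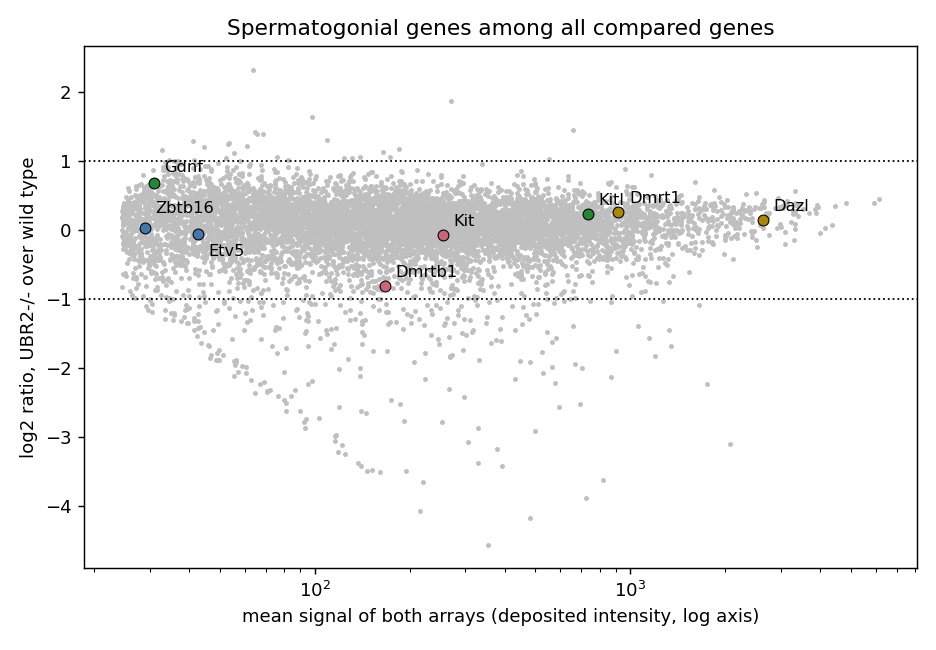
Log2 ratio of UBR2-/- over wild type against mean signal of both arrays (log axis) for 8091 genes in grey and the 8 compared genes in colour (green for ligands, blue for undifferentiated, red for differentiating, gold for both states). Dotted lines mark 2-fold. Dmrtb1 lies at -0.82, just inside the lower line, and Gdnf is drawn at its bound of 0.67.

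Dazl and Dmrt1 act in both states, and were bright on both arrays. Dazl encodes an RNA-binding protein that promotes translation in germ cells from early development to meiosis. Its probe set 1419542_at gave 2509.1 in wild type and 2749.7 in UBR2-/- testes, and 1449502_at gave 861.2 and 988.8. The log2 ratios of 0.13 and 0.20 differed by 0.07, and 85.9% of genes with several measured probe sets had a wider gap or an equal one. Dazl lay 0.06 above the median of all genes on the deposited scale, and its ratio turned to -0.06 with quantile normalization, -0.06 with loess and -0.22 with spike-in scaling.

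Dmrt1 encodes another DM domain factor, made in Sertoli cells and in spermatogonia, which holds back meiosis in spermatogonia. Its only probe set, 1423582_at, gave 833.7 in wild type and 999 in UBR2-/- testes, a log2 ratio of 0.26 with an SD of 0.13. It lay 0.19 above the median of all genes, and 26.9% of genes had a higher ratio. With spike-in scaling the ratio was -0.09, and the gene lay 0.19 above the median of all genes on that scale. The 2 DM domain genes lay on opposite sides of the median of all genes. The log2 ratio of Dmrt1 was 1.08 above that of Dmrtb1, a difference that scaling on the spike-in controls leaves as it is.

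The contrast of undifferentiated with differentiating genes rests on 2 compared genes on each side. Zbtb16 and Etv5 had a median log2 ratio of -0.02, and Kit and Dmrtb1 of -0.45. The difference of 0.42 came from Dmrtb1, since Kit by its brighter probe set lay at -0.07 beside Etv5. With the mean over probe sets the difference was 0.11.

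Further genes of each state, from lists of textbook markers, had list medians of 0.29 and 0.35, both above that of all genes. Of 20 further genes of undifferentiated spermatogonia, 17 were read and 10 compared, and the 7 others were below the floor on both arrays. Of the 10, 7 exceeded the median of all genes. Cdh1, the adhesion protein E-cadherin, had 25 in wild type, just above the floor of 24.4, and 36.1 in UBR2-/- testes. Sall4, a zinc finger factor of stem cells, had 99.9 and 134.9. Cxcr4, a chemokine receptor, was lower on the UBR2-/- array with 42.9 and 35. The 1 gene at least 2-fold lower was Id4, an inhibitor of bHLH factors used as a mark of stem spermatogonia. Its 3 probe sets gave 778.8 and 371.3, 141.5 and 80.6, and 105.9 and 67.3, for log2 ratios of -1.07, -0.81 and -0.65. All 3 were lower on the UBR2-/- array. Other cells can also make Id4, and their part was not tested.

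Of 8 further genes of differentiating spermatogonia 5 were read and compared. All 5 were higher on the UBR2-/- array and exceeded the median of all genes. Being higher was common, as 56.0% of all genes had a log2 ratio above that of Zbtb16, at 0.02. Dnmt3b and Crabp1, at 0.34 and 0.29, turn with spike-in scaling. The 5 genes had a median log2 ratio of 0.35, and 0 of them reached 2-fold. Dnmt3a, a DNA methyltransferase, had 155.5 in wild type and 245.7 in UBR2-/- testes, while its 3 measured probe sets ran from 0.02 to 0.66. Stra8, which retinoic acid induces at the start of differentiation and before meiosis, had 612.7 and 868.4, a log2 ratio of 0.50. Ccnd2, a cyclin of dividing spermatogonia, had 72.5 and 92.7. Of its 7 probe sets only this 1 was above the floor on both arrays. Dnmt3b, another DNA methyltransferase, had 314.6 and 398.1, and the retinoic acid binding protein gene Crabp1 had 176 and 214.7. Dmrtb1, at -0.82, was on the other side of 0 from these 5. With spike-in scaling the medians of both lists came to -0.06 for the undifferentiated and 0.0023 for the differentiating genes, while the median of all genes came to -0.28.

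Related ligands and co-receptors of the GDNF family, its signalling proteins and their inhibitors formed a list of 18 genes, of which 17 were read and 11 compared. Of these 5 exceeded the all-gene median, their own median was 0.05 and 0 were beyond 2-fold. The receptor tyrosine kinase inhibitors Spry1 and Spry2 were the highest, with 54.3 in wild type and 79.2 in UBR2-/- testes for Spry1 and 44.4 and 60.7 for Spry2. The lowest were Sdc3, a heparan sulfate proteoglycan that binds GDNF, at -0.13, and Mycn, a growth regulator, at -0.04. The 2 measured probe sets of Mycn ran from -0.04 to 0.21. A list of KIT signalling held 16 genes, kinases, phosphatases and adaptors beside the sheddase gene Adam17, of which 11 were read and 10 compared. Of these 6 exceeded the all-gene median, their own median was 0.13 and 0 were beyond 2-fold. Akt1, a kinase of the PI3K pathway, had 156 and 210.7, and the phosphatase gene Ptpn11 had 383.4 and 500.2. The exchange factor gene Sos1 was lower on the UBR2-/- array, with 61.9 and 45.9, as was the adaptor gene Sh2b3, with 41.3 and 31.7.

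The relatives and partners of DAZL divided. Boll, a DAZ family gene of spermatocytes, had 399.2 in wild type and 155.8 in UBR2-/- testes and was 2.56-fold lower. Dazap1, an RNA-binding protein that binds DAZ proteins, had 530 and 306.7, a log2 ratio of -0.79. Dazap2 and the translational repressor gene Pum2 had log2 ratios of 0.10 and 0.12, close to the 0.13 of Dazl, though the 3 probe sets of Pum2 ran from -0.23 to 0.12. Of the further DM domain genes and PEA3 factors only Dmrt2, with 0.2 and 5, and Etv4, with 0.9 and 1.6, were read, and both were below the floor on both arrays.

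**Figure D4:**
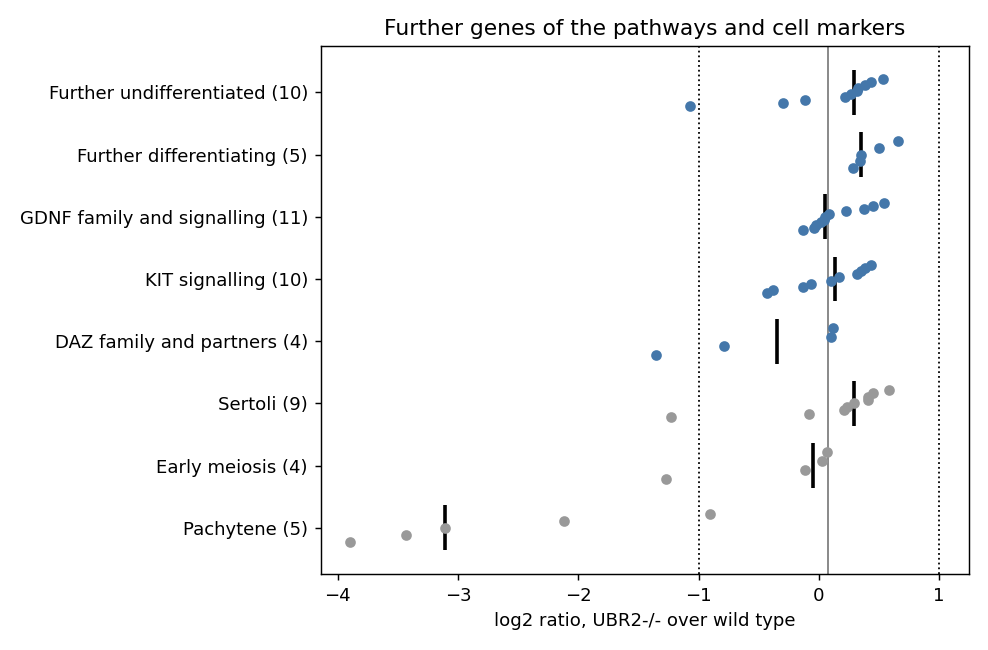
Log2 ratio of UBR2-/- over wild type for each compared gene of 8 lists, with the number of genes in brackets, spermatogonial and signalling genes in blue and cell markers in grey. Black bars are list medians, the grey line is the median of all genes at 0.07 and dotted lines mark 2-fold. A gene below the floor on an array is drawn at its bound. The pachytene markers have a median of -3.11, against 0.29 and 0.35 for the lists of undifferentiated and differentiating genes.

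Markers of the cells around spermatogonia were read beside these values. Of 9 Sertoli markers 7 exceeded the all-gene median, their own median was 0.29 and the summed signal was 8689 in wild type and 11204 in UBR2-/- testes. Sox9 and Wt1, transcription factors of Sertoli cells, had 0.29 and 0.41. The 1 Sertoli marker at least 2-fold lower was Amh, the anti-Müllerian hormone of immature Sertoli cells, with 59.7 and 25.5. Its UBR2-/- signal was just above the floor of 24.7. All 5 myoid markers exceeded the all-gene median, with a median of 0.49, summed signals of 1663.8 and 2339.3, and Acta2 at 0.49 and Myh11 at 0.64. Both cell types make GDNF, and Sertoli cells make KITL and DMRT1. The part of these cells in the values of Gdnf, Kitl and Dmrt1 was not tested. Of 4 compared Leydig markers 3 exceeded the all-gene median, with Star at 0.80 and Cyp11a1 at -0.59, and the summed signals were 956.7 and 979.4. The 3 probe sets of Star ran from 0.11 to 0.84. Of 5 macrophage markers 1 (Ptprc) exceeded it, with Csf1r at -0.02 and Adgre1 at -0.24, and the summed signals were 455.1 and 456.1. Of 4 endothelial markers 2 (Cdh5 and Kdr) exceeded it, and Pecam1, at -0.28, did not. Kdr, Ptprc and the myoid marker Des were below the wild type floor, and Pecam1 was below the UBR2-/- floor. Their ratios are bounds whose direction was set by the filter. The 2 measured erythrocyte markers were below the floor on both arrays.

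Among germ cell markers, the early meiosis genes Sycp1 and Sycp3 had log2 ratios of -0.11 and 0.02, and 1 of 4 early meiosis markers was at least 2-fold lower, the strand break enzyme gene Spo11 with 555.7 and 229.8. Tex101, a germ cell surface protein, had 0.03 and the RNA helicase gene Ddx4 had -0.77. Ldhc and Hspa2, enzyme and chaperone of pachytene spermatocytes, were 8.62-fold and 1.87-fold lower. Of 4 spermatid markers 3 were below the floor on both arrays, and the dim Prm1 had 35.3 and 94. The log2 ratio of Dmrtb1, at -0.82, was near those of Ddx4 and Hspa2 and below those of Sycp1, Sycp3 and Tex101. It was above that of Spo11, at -1.27, and the -2.12 or less of the other 4 pachytene markers.

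**Figure D5:**
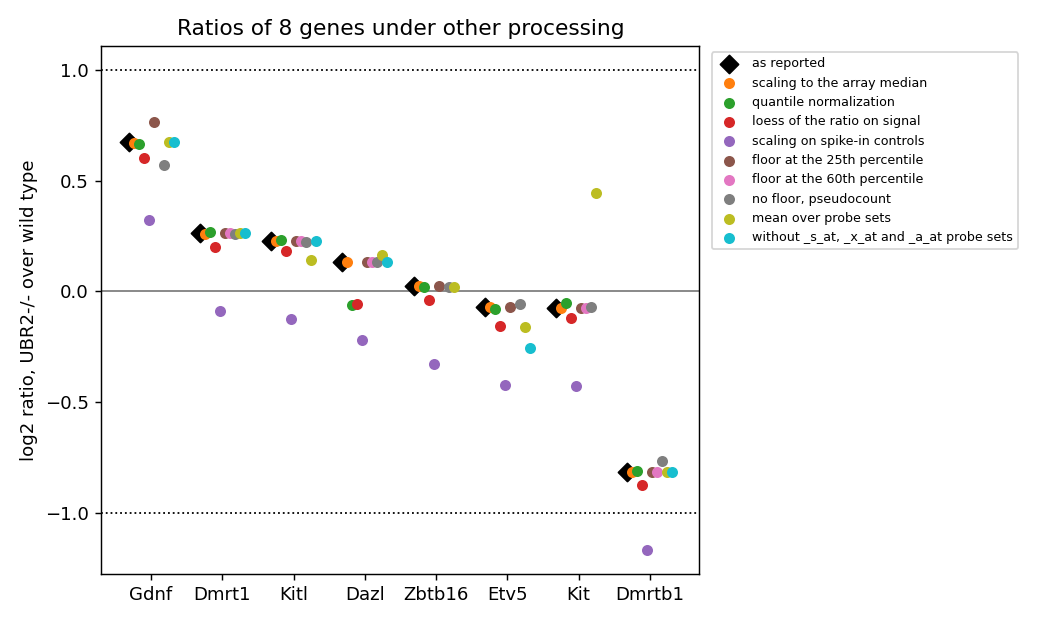
Log2 ratio of UBR2-/- over wild type of the 8 compared genes as reported (diamonds) and under 9 other ways of scaling, setting the floor or choosing probe sets (points), with dotted lines at 2-fold. Spike-in scaling gives the lowest value for every gene, and Dmrtb1 is below 0 and Gdnf above 0 in each setting that measures them. The direction of the Gdnf bound as reported is set by the filter.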

How the data were processed

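Total RNA of testes of 17 day old mice was labelled with biotin and measured on Affymetrix mouse 430A 2.0 arrays, 1 per genotype. The deposited table holds linear intensities of probe sets, which the authors made with MAS5, per the submitters' processing notes. The sources used here name no MAS5 version or settings, no detection calls and no genome build. The 2% trimmed mean was 150.0 on both arrays, so both had been scaled to a common level, which was kept.

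Besides 64 controls there were 22626 probe sets. The platform annotation, which may be old, pairs 20380 with a single symbol, 691 with several and 1555 with no symbol. Names were updated by Entrez identifier for 20351 through the GRCm38.p6 gene table. Log2 ratios were computed from the deposited intensities with Python 3.11.15, pandas 2.3.3 and numpy 2.4.6. The probe set SD is the scaled median absolute deviation of the difference between the 2 brightest probe sets of a gene, divided by the square root of 2. The calculation was tested on simulated data, and the number of arrays limits the precision.

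The 10 genes, their roles and all lists were chosen with earlier results of these data known, so no list is independent support. Beside the 10 genes and Ubr2, the text names the 2 highest and 2 lowest compared genes of each list, every compared gene of lists of 6 or fewer, and the first 2 compared markers of each cell type. Any other gene, such as Amh, Spo11 or those below the floor, was named after its values were seen, to account for a list.

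Alternatives were scaling to the array median or on 42 spike-in controls, quantile normalization, loess (statsmodels 0.14.6, span 0.3), a floor at the 25th or 60th percentile, a pseudocount of 10 in place of a floor, averaging the probe sets of a gene, omitting probe sets that end in _s_at, _x_at or _a_at, and 1.5-fold and 3-fold thresholds.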

Additional observations from a re-analysis of the deposited data

How the results depend on the processing

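Of 67 values of single genes under the alternatives, 56 moved by less than the SD of a probe set. Many of these could not move. A changed floor leaves a gene above it on both arrays as it was, and averaging leaves a gene with 1 probe set as it was. The count is therefore no measure of how firm the ratios are. With spike-in scaling 1 of the genes (Dmrtb1) was at least 2-fold lower, and the medians were -0.38 for undifferentiated genes, -0.80 for differentiating genes, -0.0596 for the further undifferentiated list and 0.0023 for the further differentiating list. By its construction this scaling lowers every ratio by 0.35. With the floor at the 25th percentile 1 gene (Ret) was at least 2-fold higher, a bound that it passed the filter for only through its UBR2-/- signal. A threshold of 1.5-fold gave 1 gene higher (Gdnf, by its bound) and 1 lower (Dmrtb1). The mean over probe sets moved the differentiating median from -0.45 to -0.19 and the difference between the groups from 0.42 to 0.11, as Kit moved from -0.07 to 0.45 and Etv5 from -0.07 to -0.16. Leaving out shared probe sets gave medians of -0.26 and -0.82, from Etv5 and Dmrtb1 alone, since Kit and Zbtb16 were no longer compared. With the floor at the 60th percentile 5 genes were compared and the undifferentiated median had no value. Over all genes, 28 were at least 2-fold higher and 285 lower as reported, against 7 and 528 with spike-in scaling, 132 and 402 with the 25th percentile floor, 8 and 152 with the 60th percentile floor, 17 and 316 with loess and 17 and 267 with a pseudocount. No paired analysis was possible because each genotype had 1 array, and for the same reason no array could be left out. Among the 10 genes, signal over background limits the undifferentiated genes most, 2 of which were under the floor rule and 2 close to it.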

Other observations

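The other co-receptor genes of the GDNF family were too dim to be compared and are given as signals only. Gfra3 had 7.8 in wild type and 30.8 in UBR2-/- testes, Gfra4 had 33.3 and 15.6, and Gfra2 had 21.3 and 26.7, against floors of 24.4 and 24.7. The ligand gene Nrtn, with 36.7 and 37.2, was measured on both arrays, while Artn and Pspn were below the floor on both. Among undifferentiated genes below the floor on both arrays, Neurog3 had 13.7 and 19, Bcl6b 10.5 and 12.4, and Lhx1 5.8 and 9.6.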
